A study of Mus musculus with 12 samples.

Results

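The response of receptor-intact stromal fibroblasts to added TGFB1 was read as the change of each gene between 3 RNA-seq libraries labelled TGFB1 and 3 labelled Vehicle. A gene was included when it had at least 1 FPKM (fragments scaled to transcript length and library size) in at least 3 of these 6 libraries, which kept 12110 of the 25203 gene symbols. Of the 12110 genes, 10905 reached 1 FPKM in all 6 libraries, 71 passed through the 3 TGFB1 libraries alone and 243 through the 3 Vehicle libraries alone. The 478 genes at 1 FPKM in exactly 3 libraries had a median level of 1.15 FPKM, and the 377 left out with exactly 2 such libraries had 0.863 FPKM. The cells were primary mouse cultures with low signal of a Pdgfra-H2B-GFP reporter, from a study of the intestinal stroma, and both groups carry this reporter. Vehicle cultures received the carrier and TGFB1 cultures received exogenous TGFB1, without a receptor deletion in either group. Libraries labelled Tgfbr2KO, for loss of the type 2 TGFB receptor, with the same pair of treatments make up the other 6 of the 12 libraries and are used only where the responses are set side by side. The dose, the duration, the age of the mice, the mouse strain and the way Tgfbr2 was deleted are not given in the sources used here. The labels give the libraries of each group the replicates 1, 2 and 3 and the table's columns carry 1 number for each replicate, shared by the groups, so changes were taken within a number. Whether the libraries are separate cultures or animals is not stated, and the p-values measure only how these libraries spread, which may be technical.

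TGFB ligands are secreted bound to a latency peptide and are held in the matrix until integrins or proteases release them. The active ligand joins type 2 and type 1 receptor kinases, which phosphorylate SMAD2 and SMAD3, and these enter the nucleus with SMAD4 and act at target genes together with partners such as AP-1. In fibroblasts the pathway is known for matrix production, contractile gene expression, slower division of many cell types and restraint of inflammatory genes.

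The FPKM of a library summed to between 503530 and 518802 in Vehicle and to between 551457 and 569510 with TGFB1. Read counts were not used here. Low values placed the relative depth of the TGFB1 libraries between 0.745 and 0.798 and that of the Vehicle libraries between 0.963 and 1.05. Tgfbr2 stood at 48.0, 38.2 and 78.8 FPKM in Vehicle and 56.5, 70.6 and 74.6 FPKM with TGFB1 (log2 0.34 ± 0.18, limma adjusted p = 0.208), and at 27.0, 35.2 and 41.9 FPKM in vehicle-treated and 31.6, 38.0 and 62.4 FPKM in TGFB1-treated Tgfbr2KO cultures. A whole-gene FPKM does not check a deletion of part of a gene. Of 12 fibroblast markers, all 12 were tested and 5 rose and 4 fell, and of 10 tested smooth muscle and pericyte markers 5 rose and 2 fell. Of 16 macrophage and other leukocyte markers 14 were tested, none rose and 7 fell (17.1% of all genes fell), with 2 falls without replicate 1 and 0 without the replicate block, and their summed level was 44.2 to 836 FPKM in Vehicle and 19.3 to 485 FPKM with TGFB1. Xist was at most 0.0185 FPKM and Ddx3y at least 15.3 FPKM in all 6 libraries. Sums over the endothelial markers (1.17 to 16.8 and 1.29 to 14.5 FPKM), the epithelial markers (6.28 to 9.80 and 3.24 to 6.24 FPKM) and the mesothelial markers (0.576 to 2.43 and 0.724 to 1.09 FPKM) were low in both groups. The enteric glia and neuron list reached 204 to 256 FPKM in Vehicle and 242 to 288 FPKM with TGFB1, with 8 of its 10 genes under 1 FPKM in all 6 libraries. The list for interstitial cells of Cajal summed to 28.8 to 37.6 and 21.5 to 25 FPKM. No marker was at 0 in all 6 libraries.

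TGFB1 changed 4505 of the 12110 genes, or 37.2%, by limma on log2(FPKM + 1) with the number as a block and a Benjamini-Hochberg adjusted p under 0.05. Rises were more frequent, at 2431 genes (20.1%) against 2074 falls (17.1%), but falls were deeper. At least 2-fold changes on this scale numbered 278 rises (2.30%) and 469 falls (3.87%), and at least 4-fold changes 49 rises and 122 falls. The median log2 change was 0.40 among rising genes, -0.61 among falling genes and 0.028 over all genes. Rises tended to lie at higher levels than falls. Rising genes had a median Vehicle level of 19.7 FPKM and falling genes 9.67 FPKM, against 11.3 FPKM over all genes. Among genes with a mean over 100 FPKM, 38.3% rose and 8.09% fell, whereas of those under 5 FPKM 7.71% rose and 22.9% fell. Genes that rose gained 68368 FPKM in all, and genes that fell changed by -25374 FPKM. The 3 Vehicle and 3 TGFB1 values did not overlap for 5892 genes (48.7%). Of the 71 genes that entered through TGFB1 libraries alone 63 rose, and of the 243 that entered through Vehicle libraries alone 201 fell. These had to differ in order to enter, and without them 2368 genes rose and 1873 fell. The medians, the 2-fold and 4-fold counts and the shares by level include them and were not recounted without them. Without replicate 1, limma called 1964 genes (923 higher and 1041 lower), and without replicate 2 it called 3084 (1527 higher and 1557 lower). In what follows, values set as Vehicle against TGFB1 are in the order of replicates 1, 2 and 3, and a log2 change is given ± its standard error. For genes that entered through 1 group alone, the log2 change states a size and is no test.

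All 4505 called genes moved the same way in the 3 pairs, but a test within pairs favours such genes, so this is no separate support. The changes of 2 pairs correlated across the 12110 genes at r of 0.761 to 0.819, a description over genes that share libraries. The pairs were not equal in size. For 501 genes the 3 pair changes spread over more than 1 on the log2 scale, and 261 of the 469 genes that fell at least 2-fold had their highest Vehicle level in replicate 3. The share over all genes was not counted, so that trait is not shown to be particular to the falls. The balance of rises and falls depends on how libraries are set to each other: with every library scaled to the same FPKM sum, the median log2 change became -0.097 and the calls 1385 higher and 3125 lower, and with upper-quartile scaling they were 1977 and 2362. Changes below about 0.1 on the log2 scale are therefore read relative to that shift.

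**Figure D1:**
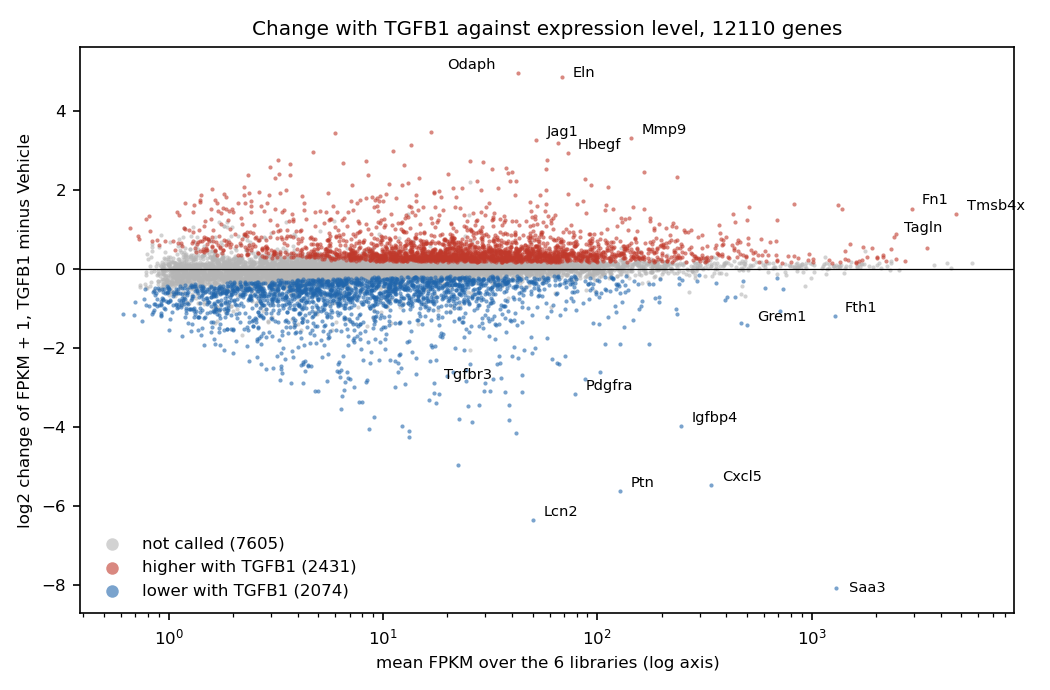
Log2 change of FPKM + 1 (TGFB1 minus Vehicle) for each of 12110 genes against its mean FPKM over the 6 libraries (log axis), with called rises in red (2431), called falls in blue (2074) and genes not called in grey. Rises lie mostly at higher levels, and the deepest falls, led by Saa3 at -8.07, exceed the largest rise, Odaph at 4.97.

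The 3 ligand genes of the pathway rose and the gene of its co-receptor fell. Of 18 tested genes for TGFB ligands, receptors and latency 9 rose and 4 fell (median log2 0.43, against 0.028 over all genes). Tgfb2, a ligand, stood at 7.73, 6.50 and 4.93 FPKM in Vehicle and 22, 20.6 and 19.4 FPKM with TGFB1 (log2 1.57 ± 0.091, limma adjusted p = 0.000877). All 3 ligand genes rose, Tgfb1 from 29.1 ± 3.67 to 53.3 ± 3.57 FPKM and Tgfb3 from 34.8 ± 3.73 to 62.6 ± 8.80 FPKM (SD, n = 3). Itgb3, a subunit of an integrin that releases latent TGFB, was at 20.7, 14.3 and 17.3 FPKM in Vehicle and 63.6, 68.5 and 64.2 FPKM with TGFB1 (log2 1.86 ± 0.12), and its partner gene Itgav (log2 0.52 ± 0.056) and Itgb5 (log2 0.66 ± 0.089) rose by less. Latent TGFB binding proteins joined them with Ltbp4 (log2 1.11 ± 0.15) and Ltbp2 (log2 0.70 ± 0.048). The falls were of Tgfbr3 (log2 -2.89 ± 0.16), which encodes the co-receptor betaglycan, of Tgfbr1 (log2 -0.32 ± 0.079), the type 1 receptor, and of the 2 genes Nrros (log2 -0.53 ± 0.15) and Lrrc32 (log2 -0.51 ± 0.097), whose proteins hold latent TGFB at the cell surface. Tgfbr1 ranged from 14.5 to 18.0 FPKM in Vehicle and from 12.5 to 13 FPKM with TGFB1, a small step without overlap between the groups. The members not called were Tgfbr2, Acvrl1, Ltbp3, Eng and Ltbp1. Calls were lost without replicate 1 for Lrrc32, Nrros and Tgfbr1. Without replicate 2, Lrrc32 missed the threshold. Leaving out replicate 3 ended the call of Nrros and Tgfbr1. Removing the replicate block ended the call of Lrrc32 and Nrros. The counts of rises and falls without replicate 1 were 9 and 1 for ligands, receptors and latency. Without replicate 3, rises and falls numbered 9 and 2 for ligands, receptors and latency. Rises and falls numbered 9 and 2 for ligands, receptors and latency without the replicate block.

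Downstream of the receptors, feedback inhibitors rose while SMAD3 itself fell. Of 23 SMAD and feedback genes 10 rose and 3 fell (median log2 0.10), but with equal sums the counts were 6 higher and 6 lower and the median was -0.030. Pmepa1, which encodes a membrane inhibitor of receptor SMADs, was at 41.5, 35.2 and 37.6 FPKM in Vehicle and 141, 113 and 113 FPKM with TGFB1 (log2 1.65 ± 0.058, limma adjusted p = 0.000354). Skil, the gene of the corepressor SnoN, was higher in each pair, at 13.1, 11.8 and 12.7 FPKM against 29.8, 29.8 and 27.5 FPKM. Further rises were those of Ldlrad4 (log2 1.17 ± 0.11), a relative of Pmepa1, the inhibitory SMAD gene Smad7 (log2 0.80 ± 0.12) and the ubiquitin ligase genes Smurf1 (log2 0.74 ± 0.065) and Smurf2 (log2 0.44 ± 0.052). Smad3 was lower in every TGFB1 library, at 34.4, 32.0 and 29.9 FPKM against 22.3, 25.6 and 25.7 FPKM, and Smad6 (log2 -0.71 ± 0.072), the inhibitory SMAD of BMP signalling, also fell. Smad2 and Smad4 were not called. Among 22 early targets 16 rose and 1 fell (median log2 0.68). The exception, Tgfbi, is named for its induction by TGFB, and here it stood at 41.8, 52.9 and 156 FPKM in Vehicle and 10.6, 16.4 and 20 FPKM with TGFB1 (log2 -2.14 ± 0.25, limma adjusted p = 0.00413). The 3 Vehicle libraries all lay above the TGFB1 libraries. Among the rises, Nuak1 (log2 2.05 ± 0.097) encodes a kinase related to AMPK, Pdlim4 (log2 1.33 ± 0.15) an actin-associated LIM protein, Lif (log2 1.21 ± 0.30) a cytokine and Fstl3 (log2 0.97 ± 0.076) a binding protein of activin. The test with replicate 1 left out did not call Lif and Smad3. When replicate 2 was dropped, the call of Smad3 was lost. No call was made for Pdlim4 without the replicate block. Counted without replicate 1, rises and falls were 6 and 2 for SMAD and feedback genes.

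Among the largest rises were genes that started near 0. Odaph, known for its role in enamel mineralisation, was at 2.99, 2.23 and 0 FPKM in Vehicle and 143, 71.1 and 37.3 FPKM with TGFB1 (log2 4.97 ± 0.17, limma adjusted p = 0.000354). Genes were named among these rises only if their groups did not overlap, so that separation is not a result. The TGFB1 libraries of Odaph spread widely, with replicate 1 the highest. Tfpi2, which encodes a secreted protease inhibitor, was at 2.27, 1.78 and 1.84 FPKM against 32.1, 31.8 and 30.4 FPKM and so varied little within a group (log2 3.46 ± 0.070). Mmp9, a gelatinase gene, was at 38.8, 11.0 and 33.4 FPKM against 185, 345 and 250.4 FPKM (log2 3.32 ± 0.51, limma adjusted p = 0.00830), with its largest change in replicate 2. Olfm2, encoding a secreted olfactomedin protein, stood at 2.48, 2.25 and 1.28 FPKM against 28.1, 25.7 and 21.1 FPKM. The microtubule-binding stathmin gene Stmn4 (log2 2.98 ± 0.16), the membrane-anchored semaphorin gene Sema7a (log2 2.75 ± 0.10), Cthrc1 (log2 2.76 ± 0.23), whose product is a secreted protein with a collagen-like repeat, and Pappa (log2 2.74 ± 0.22), whose product cleaves IGF binding proteins, completed the leading genes together with Jag1, Col5a3, Hbegf, Fgf21, Ctsw, Eln and the unnamed gene 3110040M04Rik (log2 3.44 ± 0.16). Mmp9 changed by 2.55 on the log2 scale when replicate 2 was left out. The log2 change of Eln was 5.48 without replicate 3.

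**Figure D2:**
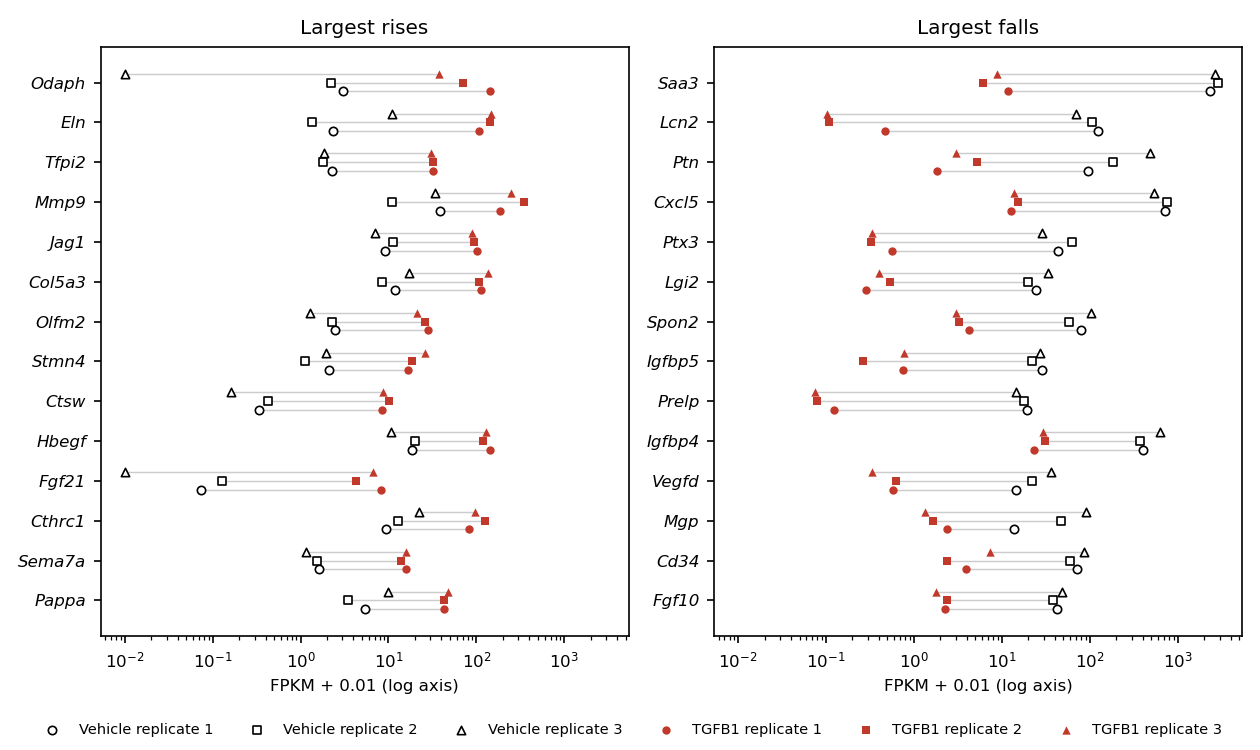
FPKM + 0.01 (log axis) of 14 of the 15 largest rises and 14 of the 15 largest falls whose higher group mean was 5 FPKM or more, open symbols for Vehicle, red symbols for TGFB1 and 1 marker shape per replicate joined by a line. Only called genes whose open and red symbols do not overlap could be chosen, so the lack of overlap is not a result. Odaph and Fgf21 were at 0 in Vehicle replicate 3.

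In mean FPKM, the largest gains without overlap between the groups were those of Tmsb4x and Fn1. Tmsb4x, encoding the actin monomer-binding thymosin beta 4, stood at 2668, 2379 and 2776 FPKM in Vehicle and 6585, 6598 and 7421 FPKM with TGFB1 (log2 1.4 ± 0.055, limma adjusted p = 0.000424). This X-linked gene has near-identical copies in the genome, so its assignment is uncertain. Fibronectin, Fn1, was at 1447, 1270.4 and 1838 FPKM against 4124, 4407 and 4496 FPKM, and tenascin C, Tnc, a matrix glycoprotein of wounds, at 755, 762 and 632 FPKM against 1734, 2204 and 2202 FPKM. Tpm1 and Tagln, actin-binding genes of contractile cells, rose from 1733 ± 143 to 3203 ± 109 FPKM and from 1753 ± 196 to 3089.5 ± 241 FPKM (SD, n = 3), and Vim, the intermediate filament gene of mesenchyme, from 1186 ± 87.5 to 1836 ± 75.1 FPKM. Ccn2, the gene of a matricellular protein, was at 803, 739 and 455 FPKM against 2002, 1963 and 1982 FPKM and Sparc, a collagen-binding protein gene, at 1806, 1579 and 2496 FPKM against 2634, 2528 and 2996 FPKM (log2 0.50 ± 0.090, limma adjusted p = 0.0134). For Sparc the highest Vehicle library, replicate 3, lay just below the lowest TGFB1 library. On the 2 pairs other than replicate 1, Sparc did not pass. Fitted without the replicate block, Sparc missed the threshold.

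A set of 16 genes was under 0.5 FPKM in every Vehicle library and at 2 FPKM or more in every TGFB1 library, and they are described by level, since the rule that chose them used it. Wnt7b, a WNT ligand gene, was at 0.0656, 0.0906 and 0.0566 FPKM in Vehicle and 3.81, 5.22 and 4.80 FPKM with TGFB1. Htr2b, the serotonin receptor 2B, was at 0.446, 0.336 and 0.366 FPKM against 6.47, 5.08 and 6.04 FPKM, and Tnfsf18 and Tnfsf4, which encode the T cell costimulators GITRL and OX40L, reached means of 5.82 ± 2.18 and 2.65 ± 0.0115 FPKM (SD, n = 3). Lrrc15, a leucine-rich repeat membrane protein used as a marker of myofibroblasts in tumours, was at 0.353, 0.322 and 0.480 FPKM against 3.28, 4.56 and 4.50 FPKM. The set also held the potassium channel gene Kcnk1, the protease gene Adamts16, the cathepsin gene Ctsw, the endocrine growth factor gene Fgf21, the glycan enzyme genes Chst5 and St8sia2, and Klhl30, Rph3a, Fbxo40, 3110040M04Rik and 1600027J07Rik. Levels with TGFB1 ranged from 2.33 FPKM for Fbxo40 to 11.7 FPKM for 3110040M04Rik as group means.

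The deepest falls at levels over 5 FPKM were led by Saa3 and Lcn2. Saa3, an acute phase serum amyloid gene, was at 2309.6, 2869.7 and 2628 FPKM in Vehicle and 11.9, 6.15 and 8.82 FPKM with TGFB1. Lcn2, the gene of lipocalin 2, was at 126, 106 and 69.5 FPKM against 0.457, 0.0995 and 0.0919 FPKM (log2 -6.35 ± 0.13). Genes were named here only if their groups did not overlap, so that separation is not a result. Lcn2 also entered through the Vehicle libraries alone. Ptn, which encodes the heparin-binding growth factor pleiotrophin, was at 94.7, 185 and 478 FPKM against 1.82, 5.26 and 2.97 FPKM (log2 -5.63 ± 0.41, limma adjusted p = 0.00138), and its Vehicle libraries differed widely among themselves. The IGF binding protein genes Igfbp5 (log2 -4.09 ± 0.074) and Igfbp4 (log2 -3.98 ± 0.16) fell, the latter at 399.9, 373 and 620.5 FPKM against 23.2, 31.1 and 29.5 FPKM. Ptx3, a secreted pattern recognition protein, was at 43.1, 62.3 and 28.4 FPKM against 0.547, 0.311 and 0.324 FPKM, and Mgp, an inhibitor of calcification, at 13.7, 47.0 and 89.8 FPKM against 2.36, 1.62 and 1.33 FPKM. Cd34, a sialomucin of progenitor and stromal cells, stood at 72.0, 59.6 and 86.7 FPKM against 3.88, 2.39 and 7.41 FPKM. The matrix protein genes Spon2 (log2 -4.15 ± 0.19) and Prelp (log2 -4.06 ± 0.098), the synaptic adhesion gene Lgi2 (log2 -4.25 ± 0.17) and the protease inhibitor gene Slpi (log2 -3.74 ± 0.30) were the others with Cxcl5, Vegfd and Fgf10. Fewer cells of a type and less RNA per cell cannot be told apart in these bulk libraries. The log2 change of Mgp was -4.74 without replicate 1. For Mgp the log2 change without replicate 3 was -3.16. Ptn changed by -4.99 on the log2 scale when replicate 3 was left out.

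By mean FPKM the largest losses without overlap between the groups, after Saa3, included Fth1, ferritin heavy chain, at 1963, 1526 and 1846 FPKM in Vehicle and 888, 619 and 843 FPKM with TGFB1 (log2 -1.19 ± 0.057, limma adjusted p = 0.000584), Ifitm3, an interferon-inducible membrane protein gene, at 618, 559 and 844 FPKM against 230.1, 251 and 297 FPKM, and Nid1, a basement membrane linker gene, at 562, 607 and 477 FPKM against 330.1, 348 and 321 FPKM. Fth1, Ifitm3 and Ptma (log2 -0.52 ± 0.045) have near-identical copies and are uncertain. Grem1, a secreted BMP antagonist gene, was at 789, 642 and 740.0 FPKM against 339, 250.2 and 234 FPKM, with all Vehicle libraries above all TGFB1 libraries. The genes at 2 FPKM or more in every Vehicle library and under 0.5 FPKM in every TGFB1 library numbered 21. They are given by level, since the rule used it. Tcf21, a bHLH factor of mesenchymal progenitors, was at 11.5, 6.23 and 10.7 FPKM against 0.162, 0.292 and 0.109 FPKM, Npy4r, a receptor of the pancreatic polypeptide family, at 7.04, 7.56 and 14.6 FPKM against 0.130, 0.315 and 0.197 FPKM, and S1pr3, a sphingosine 1-phosphate receptor, at 3.30, 11.4 and 17.0 FPKM against 0.240, 0.473 and 0.471 FPKM. Hp (haptoglobin), Lbp (lipopolysaccharide binding protein), C4b, Serpina3n, Il33 and Lcn2 are genes of the acute phase or of innate defence. Rspo1 encodes a WNT agonist, Chrdl2 a BMP antagonist, Alpl the tissue-nonspecific alkaline phosphatase and Efemp1 a fibulin. Clca3a1, Gbp9, Gprin3, Prelp, Rerg, Rnf144a, Unc5c and Vstm2b made up the rest. The log2 change of Chrdl2 was -2.04 without replicate 3.

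Collagen chains changed in both directions, also within a type. Of 23 tested chains 12 rose and 8 fell (median log2 0.45). Col5a3 rose most and Col7a1 next. Col5a3, a chain of collagen V, which regulates fibril diameter with collagen XI, was at 11.8, 8.37 and 16.9 FPKM in Vehicle and 114, 106 and 135 FPKM with TGFB1, Col11a1 at 7.90, 6.88 and 25.2 FPKM against 61.9, 58.8 and 79.2 FPKM (log2 2.45 ± 0.27, limma adjusted p = 0.00355), and Col5a1 (log2 1.18 ± 0.11) and Col5a2 (log2 0.77 ± 0.13) moved with them. Col7a1, the anchoring fibril collagen below epithelia, was at 6.40, 7.14 and 7.42 FPKM against 50.2, 59.2 and 45.5 FPKM (log2 2.71 ± 0.096, limma adjusted p = 0.000354). Chains of collagen VI, a beaded microfibril, went apart: Col6a1 (log2 -1.16 ± 0.15) and Col6a2 (log2 -1.72 ± 0.17) fell and Col6a3 (log2 0.61 ± 0.060) rose. The fibril-associated collagen gene Col14a1 was at 24.4, 8.76 and 26.3 FPKM against 3.72, 1.90 and 2.86 FPKM (log2 -2.33 ± 0.21, limma adjusted p = 0.00210). For the chains of collagen I, the main fibrillar collagen, Col1a1 passed narrowly (adjusted p = 0.0446) and Col1a2 did not pass (log2 0.45 ± 0.19, limma adjusted p = 0.130). Col1a1 was at 2546, 2165 and 3881 FPKM against 3737, 4110.4 and 4291 FPKM, and the groups overlapped because Vehicle replicate 3 stood above TGFB1 replicate 1. Col3a1 was likewise highest in Vehicle replicate 3, at 635, 609.6 and 1738 FPKM against 349.9, 430.0 and 501 FPKM (log2 -1.05 ± 0.25, limma adjusted p = 0.0287). The basement membrane chain Col4a1 (log2 0.23 ± 0.049) rose slightly and Col4a2 was not called. For Col1a1, Col3a1, Col4a1 and Col5a2, the call needed replicate 1. Calls were lost without replicate 2 for Col1a1 and Col4a1. Without the replicate block, Col1a1, Col3a1 and Col4a1 did not pass.

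The elastic fibre genes held 1 of the 2 largest changes upward. Eln, elastin, was at 2.32, 1.35 and 10.8 FPKM in Vehicle and 108, 141 and 148 FPKM with TGFB1 (log2 4.87 ± 0.42, limma adjusted p = 0.00199), and the Vehicle level was highest in replicate 3. The crosslinking enzymes Lox (log2 1.39 ± 0.10), Loxl2 (log2 1.25 ± 0.078) and Loxl3 (log2 1.24 ± 0.087) and the microfibril gene Fbn1 (log2 0.94 ± 0.15) rose, within 7 rises and 3 falls of 18 tested (median log2 0.25). The fibulin genes went both ways, with Fbln2 (log2 0.33 ± 0.064) higher and Fbln1 (log2 -1.98 ± 0.20) and Efemp1 (log2 -2.42 ± 0.15) lower. Enzymes of collagen folding and export rose in 17 of 29 cases with 1 fall (median log2 0.30), and in 10 higher and 3 lower with equal sums. P3h1 (log2 0.87 ± 0.053) and P4ha2 (log2 0.54 ± 0.13) hydroxylate prolines, Plod2 (log2 0.63 ± 0.15) lysines, and Fkbp10 (log2 0.72 ± 0.046) is a prolyl isomerase of the endoplasmic reticulum. Sec23a (log2 0.59 ± 0.063) and Mia3 (log2 0.39 ± 0.053) serve the export of procollagen. Bmp1, the procollagen C-proteinase, was at 164, 154 and 194 FPKM against 324, 334 and 359 FPKM. Its 2 enhancer genes moved oppositely, Pcolce2 at 34.9, 31.7 and 25.4 FPKM against 72.1, 66.1 and 60.8 FPKM (log2 1.10 ± 0.064) and Pcolce at 183, 207 and 233 FPKM against 77.4, 95.0 and 81.4 FPKM (log2 -1.28 ± 0.087). Each pair showed both directions. Without replicate 1, Fbln2, Mia3 and Plod2 missed the threshold. Leaving out replicate 2 ended the call of Fbln2, P4ha2 and Plod2. The test with replicate 3 left out did not call P4ha2. Eln changed by 5.48 on the log2 scale when replicate 3 was left out. Removing the replicate block ended the call of Fbln2 and P4ha2. Calls without replicate 1 (rises and falls) were 10 and 1 for collagen folding and export genes. In the fit without replicate 2, calls up and down were 11 and 1 for collagen folding and export genes.

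Core proteins of proteoglycans changed in both directions, 7 up and 9 down of 22 (median log2 -0.22). With members that reached 1 FPKM in 1 group alone set aside, 7 rose and 6 fell of 19. Prelp was at 19.2, 17.7 and 14.5 FPKM against 0.112, 0.0684 and 0.0644 FPKM, and Lum, a regulator of collagen fibril spacing, at 11.6, 3.49 and 38.5 FPKM against 1.89, 0.855 and 5.02 FPKM (log2 -2.04 ± 0.27, limma adjusted p = 0.00580). Fmod (log2 -1.10 ± 0.15) and Podn (log2 -0.83 ± 0.19) of the same family fell from low levels, Bgn (log2 0.25 ± 0.058) rose and Dcn was not called. Glypicans divided into Gpc1 (log2 0.93 ± 0.088) and Gpc4 (log2 0.89 ± 0.079) higher and Gpc3 (log2 -2.74 ± 0.45) and Gpc6 (log2 -1.24 ± 0.088) lower, and syndecans into Sdc3 (log2 0.79 ± 0.062) and Sdc2 (log2 0.71 ± 0.051) higher and Sdc4 (log2 -1.15 ± 0.12) and Sdc1 (log2 -0.35 ± 0.065) lower. Cspg4, the chondroitin sulphate proteoglycan NG2, was at 0.474, 1.97 and 1.20 FPKM against 3.63, 9.11 and 8.81 FPKM (log2 1.86 ± 0.13, limma adjusted p = 0.00117). Enzymes of glycosaminoglycan synthesis had 14 rises and 6 falls of 34 (median log2 0.056), and 12 higher and 11 lower with a median of -0.063 under equal sums. Chsy3, a chondroitin synthase gene, was at 3.19, 2.67 and 3.63 FPKM against 14.2, 13.2 and 12.9 FPKM, and Hs6st1, a heparan 6-O-sulphotransferase gene, at 25.5, 22 and 29.9 FPKM against 78.5, 73.7 and 85.8 FPKM. Hs3st1, a heparan 3-O-sulphotransferase gene, entered through the Vehicle libraries alone and is given by level. It was at 4.94, 5.05 and 11.0 FPKM against 0.452, 0.567 and 0.833 FPKM. Hyaluronan synthase 2 rose, Has2 (log2 0.87 ± 0.10). The extracellular sulphatases differed, with Sulf1 (log2 0.95 ± 0.14) higher and Sulf2 (log2 -0.50 ± 0.096) lower. When replicate 1 was dropped, the call of Bgn, Podn, Sdc1 and Sulf2 was lost. On the 2 pairs other than replicate 2, Bgn did not pass. The log2 change of Gpc3 was -2.06 without replicate 3. No call was made for Lum and Podn without the replicate block.

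Metalloproteases and their inhibitors changed in 30 of 40 tested cases, 14 up and 16 down (median log2 -0.068). The gelatinase genes Mmp9 and Mmp2 (log2 0.70 ± 0.073) and the membrane-type enzyme gene Mmp14 (log2 0.58 ± 0.11) rose, while the stromelysin gene Mmp3 (log2 -1.78 ± 0.27) and the collagenase gene Mmp8 (log2 -1.54 ± 0.22) fell. Of the aggrecan-cleaving ADAMTS enzymes, Adamts4 (log2 0.93 ± 0.091) rose, and Adamts5 (log2 -2.38 ± 0.075), Adamts9 (log2 -2.78 ± 0.13) and Adamts1 (log2 -1.46 ± 0.092) fell. Adamts9 was at 14.5, 13.5 and 10.9 FPKM against 0.827, 1.08 and 1.16 FPKM. Adamts2, a procollagen N-proteinase gene, fell and Adamts14 (log2 1.56 ± 0.095) of the same subfamily rose (log2 -1.03 ± 0.10 for Adamts2). The inhibitors Timp3 (log2 1.20 ± 0.062) and Timp1 (log2 0.78 ± 0.085) rose. Serpins, inhibitors of serine proteases, had 4 rises and 8 falls of 17 (median log2 -0.21). Serping1, the C1 inhibitor gene, was at 54.9, 86.7 and 100.3 FPKM against 5.71, 10.4 and 9.13 FPKM, and Serpina3n and Serpina3g, members of a cluster of similar copies and so uncertain, had log2 changes of -2.80 ± 0.25 and -2.10 ± 0.15. Cathepsins and cystatins had 6 rises and 2 falls of 14 (median log2 0.25), among them Ctsl (log2 0.52 ± 0.049) and Ctsk (log2 0.31 ± 0.062) up and Ctsc (log2 -0.65 ± 0.055) down. Ctsw, a cathepsin known from lymphocytes, was at 0.329, 0.417 and 0.152 FPKM against 8.35, 10.2 and 8.77 FPKM. For Ctsk and Mmp14, the call needed replicate 1. The log2 change of Mmp9 was 2.55 without replicate 2. Fitted without the replicate block, Ctsk and Mmp2 missed the threshold. List counts without replicate 1 came to 12 and 10 for metalloproteases and TIMPs, 1 and 6 for serpins and 3 and 1 for cathepsins and cystatins, rises first. Leaving aside members that reached 1 FPKM in 1 group alone, rises and falls were 4 and 4 for serpins.

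Integrin subunits had 7 rises and 3 falls of 15 (median log2 0.23). Itga5, which with Itgb1 forms the fibronectin receptor, was at 340.2, 313 and 243 FPKM in Vehicle and 753, 681 and 679.9 FPKM with TGFB1 (log2 1.25 ± 0.087, limma adjusted p = 0.00120), and Itgb1 (log2 0.69 ± 0.053) and the laminin receptor gene Itga7 (log2 1.73 ± 0.10) rose with it. The collagen receptor gene Itga1 (log2 -0.91 ± 0.11) and Itga8 (log2 -0.85 ± 0.11) fell. In the focal adhesion and stress fibre list 19 rose and 3 fell of 33 (median log2 0.31), led by Pdlim1 (log2 1.52 ± 0.10), Tln2 (log2 1.18 ± 0.079) and Enah (log2 1.12 ± 0.072). The tensin genes split, Tns1 (log2 0.81 ± 0.050) up and Tns2 (log2 -0.88 ± 0.10) and Tns3 (log2 -0.40 ± 0.066) down. Of 25 contractile genes 13 rose and 2 fell (median log2 0.23). Skeletal actin led them: Acta1 was at 22.8, 46.3 and 21.6 FPKM against 135, 188 and 113 FPKM (log2 2.28 ± 0.11, limma adjusted p = 0.000584). Acta2, the actin of smooth muscle, moved by 0.37 ± 0.061, and the smooth muscle myosin gene Myh11 was not called. Synpo, an actin-bundling protein gene, was at 42.7, 38.5 and 57.3 FPKM against 16.7, 21.3 and 20.3 FPKM and fell, as did Mylk (log2 -0.22 ± 0.059), the myosin light chain kinase gene. Actin genes share long stretches of sequence, so reads could be split among Acta1, Acta2 and Actg2. Calls were lost without replicate 1 for Acta2 and Mylk. Without replicate 2, Mylk missed the threshold. Leaving out replicate 3 ended the call of Mylk. No call was made for Mylk without the replicate block. The counts of rises and falls without replicate 1 were 7 and 1 for contractile genes. Without replicate 2, rises and falls numbered 6 and 5 for integrin subunits and 12 and 1 for contractile genes. Rises and falls numbered 12 and 1 for contractile genes without the replicate block.

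Cadherins and protocadherins were mostly not called, at 4 up and 3 down of 40 (median log2 -0.044). Cdh11, the cadherin of mesenchymal cells, was at 25.4, 29.5 and 34.2 FPKM against 64.7, 77.1 and 77.7 FPKM (log2 1.28 ± 0.062), and Cdh10 at 3.15, 2.52 and 3.78 FPKM against 11.9, 12.4 and 11.8 FPKM. The desmosomal cadherin gene Dsc2 (log2 -1.21 ± 0.15) fell. The clustered protocadherins have similar sequences and are uncertain. Leaving aside members that reached 1 FPKM in 1 group alone, rises and falls were 2 and 2 for cadherins and protocadherins.

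Growth factor genes changed in 32 of 39 tested cases, 15 up and 17 down. Their median log2 change was 0.071, and -0.061 under equal sums with the same counts. All 4 PDGF ligand genes rose, while the gene of their receptor PDGFRA fell. Pdgfa was at 33.5, 36.3 and 33.7 FPKM in Vehicle and 139, 156 and 165 FPKM with TGFB1 (log2 2.12 ± 0.066, limma adjusted p = 0.000299), Pdgfc at 11.5, 10.2 and 10.8 FPKM against 49.9, 45.8 and 43.4 FPKM, and Pdgfb (log2 1.15 ± 0.24) and Pdgfd (log2 0.78 ± 0.12) were at lower levels. Pdgfra itself was at 137, 125 and 165 FPKM against 13.8, 19.7 and 12.1 FPKM (log2 -3.16 ± 0.20, limma adjusted p = 0.00107), and Pdgfrb was not called. Within the VEGF family the ligands of endothelial growth Vegfa (log2 1.04 ± 0.10), Pgf (log2 1.71 ± 0.18) and Vegfc (log2 0.63 ± 0.055) rose, while Vegfb (log2 -0.65 ± 0.073) and Vegfd fell. Vegfd was at 14.6, 22 and 35.7 FPKM against 0.572, 0.620 and 0.323 FPKM. In the EGF family Hbegf, a heparin-binding ligand, was at 18.7, 20.2 and 10.6 FPKM against 142, 118 and 127 FPKM and Nrg1 (log2 0.96 ± 0.080) rose, whereas Ereg (log2 -1.45 ± 0.063) and Btc (log2 -0.76 ± 0.13) fell. The test with replicate 1 left out did not call Pdgfb.

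Fgf10 and Fgf7 fell, and Fgf2 rose. Fgf10 was at 42.2, 38.0 and 48.5 FPKM in Vehicle and 2.26, 2.37 and 1.76 FPKM with TGFB1 (log2 -3.81 ± 0.13, limma adjusted p = 0.000354) and Fgf7 at 97.5, 89.5 and 60.1 FPKM against 18.9, 19.1 and 20.8 FPKM (log2 -1.99 ± 0.17), both ligands of the epithelial form of FGFR2. The groups of Fgf7 did not overlap, as was so for 48.7% of all genes, whereas Fgf10 was named as a fall without overlap. Hgf, the ligand of MET, was at 18.4, 18.7 and 18.6 FPKM against 2.66, 3.73 and 2.51 FPKM (log2 -2.32 ± 0.10, limma adjusted p = 0.000497). Fgf2 was at 34.0, 27.3 and 21.1 FPKM against 75.4, 65.9 and 53.7 FPKM (log2 1.22 ± 0.059), and Fgf21, an endocrine factor known from liver, at 0.0633, 0.120 and 0 FPKM against 8.27, 4.27 and 6.73 FPKM (log2 2.77 ± 0.20). The insulin-like growth factor genes Igf1 (log2 -1.56 ± 0.29) and Igf2 (log2 -2.45 ± 0.23) fell. Kitl, the ligand of KIT on interstitial cells of Cajal and mast cells, was at 9.62, 12.9 and 14.5 FPKM against 0.808, 0.973 and 1.83 FPKM. The neurotrophic ligand genes Gdnf (log2 -0.99 ± 0.14) and Artn (log2 -1.80 ± 0.17) fell, and of the angiopoietin-like genes Angptl2 (log2 1.41 ± 0.071) rose and Angptl8 (log2 -1.15 ± 0.12) fell. Csf1, the growth factor of macrophages, rose (log2 0.93 ± 0.19). Bmp4, a BMP ligand gene, was at 20.3, 14 and 12.2 FPKM against 0.863, 1.34 and 1.53 FPKM (log2 -2.86 ± 0.23), and Rspo3, an R-spondin gene that strengthens WNT signalling, at 8.98, 7.97 and 17.5 FPKM against 0.597, 1.20 and 1.03 FPKM (log2 -2.62 ± 0.23). When replicate 1 was dropped, the call of Csf1 was lost. Removing the replicate block ended the call of Csf1.

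**Figure D3:**
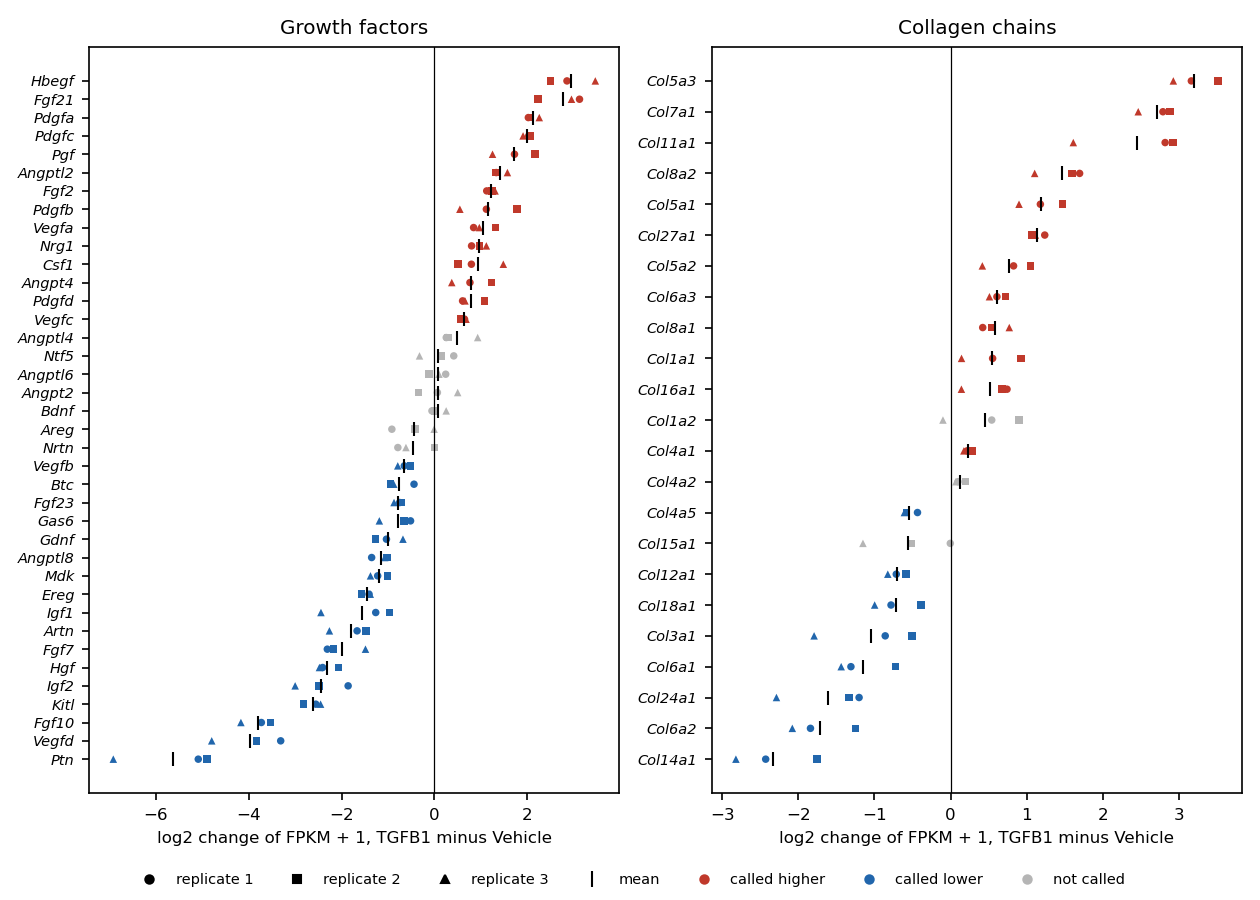
Log2 change of FPKM + 1 (TGFB1 minus Vehicle) within each of the 3 replicate pairs, by marker shape, for growth factor genes (left, all but 1 of the 39 tested) and 23 collagen chains (right), with the mean as a bar and colour for the call. The called rises and falls drawn among growth factors lie on opposite sides of 0 in all 3 pairs, which a test within pairs favours. The collagen changes range from Col5a3 down to Col14a1.

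Receptors for these and other ligands changed in both directions. Among receptor tyrosine kinases 4 rose and 10 fell of 31 (median log2 -0.078). Fgfr2 was at 17.5, 16.6 and 13.1 FPKM in Vehicle and 3.96, 3.88 and 3.10 FPKM with TGFB1 (log2 -1.84 ± 0.063, limma adjusted p = 0.000354) and Fgfr1 at 78.9, 73.9 and 74.1 FPKM against 130.1, 132 and 127 FPKM (log2 0.77 ± 0.051, limma adjusted p = 0.00116), so that the pair of FGF receptors moved in opposite directions. The HGF receptor gene Met (log2 -1.03 ± 0.11), the lymphatic VEGF receptor gene Flt4 (log2 -0.93 ± 0.11), the WNT5A receptor gene Ror2 (log2 -0.87 ± 0.056) and ephrin receptor genes, Epha7 (log2 -1.51 ± 0.12) and Epha4 (log2 -0.66 ± 0.077) among them, fell. G protein-coupled receptors had 19 rises and 32 falls of 78 (median log2 -0.12). The serotonin receptor gene Htr1b (log2 1.55 ± 0.13) and the protease-activated receptor gene F2rl1 (log2 1.12 ± 0.13) rose. The neuropeptide Y receptor gene Npy1r (log2 -1.74 ± 0.22), the bradykinin receptor gene Bdkrb1 (log2 -1.53 ± 0.099), the vasopressin receptor gene Avpr1a (log2 -1.46 ± 0.13) and the adenosine receptor gene Adora2b (log2 -1.63 ± 0.17) fell. Ackr3, a scavenger receptor of CXCL12, was at 13, 9.08 and 12.0 FPKM against 1.64, 1.96 and 1.38 FPKM, and Lpar1, a lysophosphatidic acid receptor, at 31, 30.3 and 40.9 FPKM against 12.7, 12.8 and 12.8 FPKM. Frizzled receptors of WNT went apart, Fzd6 (log2 1.45 ± 0.17) up and Fzd1 (log2 -1.36 ± 0.25) down. On the 2 pairs other than replicate 1, Fzd1 did not pass. Counted without replicate 1, rises and falls were 9 and 18 for G protein-coupled receptors. With members that reached 1 FPKM in 1 group alone set aside, 16 of these receptors rose and 24 fell of 67.

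In the Notch pathway the ligand Jag1 stood out, at 9.19, 11.2 and 7.03 FPKM in Vehicle and 101, 92.8 and 90.1 FPKM with TGFB1 (log2 3.26 ± 0.12, limma adjusted p = 0.000356). The TGFB1 libraries lay between 90.1 and 101 FPKM. Receptor genes did not follow one direction, with Notch4 (log2 0.90 ± 0.19) higher, Notch3 (log2 -0.74 ± 0.092) and Notch2 (log2 -0.22 ± 0.064) lower and Notch1 not called, and the target gene Hes1 (log2 0.40 ± 0.069) rose slightly while Hey1 was not called. In all 5 rose and 6 fell of 16 (median log2 -0.17). Hedgehog pathway genes had 1 rise and 6 falls of 15 (median log2 -0.21). The co-receptor gene Gas1 was at 17.4, 25.3 and 50 FPKM against 1.05, 2.46 and 2.53 FPKM (log2 -3.31 ± 0.19, limma adjusted p = 0.000818), the transcription factor gene Gli2 at 4.34, 4.39 and 5.23 FPKM against 0.901, 0.689 and 0.633 FPKM, and the co-receptor gene Cdon (log2 -1.04 ± 0.25) fell. Ptch1, the receptor and a direct target, was not called. Guidance genes had 12 rises and 13 falls of 44 (median log2 -0.071). Slit3, a ligand of ROBO receptors, was at 75.8, 86.9 and 148 FPKM against 13.2, 23.8 and 23.4 FPKM, while Robo1 (log2 0.74 ± 0.060) rose. The netrin genes split into Ntn4 (log2 0.75 ± 0.14) up and Ntn1 (log2 -1.25 ± 0.095) down, and the netrin receptor genes into Unc5b (log2 1.17 ± 0.14) up and Unc5c (log2 -1.21 ± 0.12) down. For Cdon, Hes1, Notch2 and Notch4, the call needed replicate 1. Calls were lost without replicate 2 for Notch2. Without replicate 3, Notch2 missed the threshold. Removing the replicate block ended the call of Notch2. Calls without replicate 1 (rises and falls) were 1 and 2 for Notch genes and 0 and 3 for Hedgehog genes. In the fit without replicate 2, calls up and down were 3 and 2 for Notch genes and 0 and 5 for Hedgehog genes. List counts without replicate 3 came to 3 and 5 for Notch genes and 0 and 5 for Hedgehog genes, rises first. With members that reached 1 FPKM in 1 group alone set aside, 5 Notch genes rose and 4 fell of 14. On that basis rises and falls were 1 and 5 of 14 for Hedgehog genes and 10 and 7 for guidance genes.

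Ion channel genes had 15 rises and 13 falls of 68 (median log2 0.074), and 13 higher and 15 lower with a median of -0.036 under equal sums. The 15 rises (22.1%) and 13 falls (19.1%) lay near the shares over all genes, 20.1% and 17.1%. Piezo2, a mechanically gated channel, was at 9.42, 6.77 and 8.87 FPKM in Vehicle and 25.3, 27.8 and 26.9 FPKM with TGFB1 (log2 1.58 ± 0.12, limma adjusted p = 0.00143), and Piezo1 was not called. Subunit genes of calcium-activated potassium channels, Kcnn3 (log2 1.45 ± 0.12) and Kcnmb1 (log2 0.92 ± 0.095), rose. Kcnk1 and Kcnk12, of the 2-pore potassium channels, entered through the TGFB1 libraries alone and are given by level, Kcnk1 at 0.0627, 0 and 0 FPKM against 3.48, 3.00 and 3.03 FPKM and Kcnk12 at 0.152, 0.0966 and 0.105 FPKM against 2.69, 1.84 and 2.96 FPKM. Inward rectifier genes Kcnj8 (log2 -1.49 ± 0.25) and Kcnj2 (log2 -1.16 ± 0.15) and the L-type calcium channel gene Cacna1c (log2 -0.97 ± 0.11) fell. Solute carriers had 53 rises and 32 falls of 192 (median log2 0.065), which became 31 higher and 42 lower with a median of -0.064 under equal sums. The amino acid carrier genes Slc7a3 (log2 1.27 ± 0.12), Slc7a1 (log2 0.57 ± 0.061), Slc1a4 (log2 0.64 ± 0.073) and Slc6a9 (log2 0.56 ± 0.12), chosen from the list for their size, rose, as did the phosphate carrier Slc20a1 (log2 1.18 ± 0.12) and the creatine carrier Slc6a8 (log2 0.77 ± 0.059). The lactate carrier gene Slc16a1 (log2 -1.27 ± 0.084) and the amino acid and purine carrier gene Slc43a3 (log2 -1.73 ± 0.15) fell. Leaving out replicate 1 ended the call of Kcnj8 and Slc6a9. Without the replicate block, Slc6a9 did not pass. The counts of rises and falls without replicate 1 were 10 and 6 for ion channels and 19 and 18 for solute carriers. Without replicate 2, rises and falls numbered 33 and 26 for solute carriers. Leaving aside members that reached 1 FPKM in 1 group alone, rises and falls were 12 and 8 for ion channels.

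Transcription factor lists held rises and falls, set here beside the shares over all genes, 20.1% higher and 17.1% lower. Their rises lay near or below that share. Egr2, a zinc finger factor, was at 2.29, 1.97 and 4.34 FPKM in Vehicle and 21.5, 20.8 and 24.5 FPKM with TGFB1 (log2 2.63 ± 0.14, limma adjusted p = 0.000670), and Klf4 at 23.0, 23.2 and 22.2 FPKM against 4.57, 4.75 and 4.42 FPKM (log2 -2.09 ± 0.056). In their list 7 rose (18.4%) and 10 fell (26.3%) of 38 (median log2 -0.10), and Klf2 (log2 -0.81 ± 0.067) fell and Klf6 (log2 0.80 ± 0.077) rose. Of bHLH and Id genes 10 rose (21.3%) and 18 fell (38.3%) of 47 (median log2 -0.14). The tendon factor gene Scx (log2 1.58 ± 0.15) and Myc (log2 0.53 ± 0.10) rose, while Twist2 (log2 -2.30 ± 0.35), Ahr (log2 -1.52 ± 0.11), which encodes the aryl hydrocarbon receptor, and Hand2 (log2 -0.81 ± 0.14) fell, together with all 4 Id genes. Id3 was the most abundant of them, at 204, 225 and 200.2 FPKM against 102, 99.2 and 109 FPKM. Homeobox genes had 7 rises (14%) and 12 falls (24%) of 50 (median log2 -0.092). Prrx1, a marker factor of mesenchyme, was at 16.6, 26.1 and 18.1 FPKM against 2.71, 5.11 and 3.48 FPKM (log2 -2.16 ± 0.064, limma adjusted p = 0.000273), and Prrx2 (log2 -1.23 ± 0.15), Meis2 (log2 -1.42 ± 0.18) and the gut mesenchyme factor Nkx2-3 (log2 -0.83 ± 0.072) fell beside it. Among the HOX genes Hoxb9 (log2 0.91 ± 0.069) and Hoxb2 (log2 0.89 ± 0.061) rose. The test with replicate 1 left out did not call Hand2. Rises and falls numbered 4 and 5 for KLF, GATA and EGR factors, 4 and 13 for bHLH factors and Id proteins and 4 and 9 for homeobox factors without replicate 1. Counted without replicate 2, rises and falls were 4 and 8 for KLF, GATA and EGR factors, 5 and 17 for bHLH factors and Id proteins and 4 and 11 for homeobox factors. Calls without the replicate block (rises and falls) were 4 and 10 for homeobox factors.

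SOX, FOX, RUNX and TBX genes had 7 rises and 5 falls of 35 (median log2 0.038), and 3 higher and 7 lower with a median of -0.088 under equal sums. The 7 rises (20%) and 5 falls (14.3%) lay near the shares over all genes, 20.1% and 17.1%. Runx1 was at 18.3, 16.4 and 16.7 FPKM against 33.8, 36.9 and 33.0 FPKM, and Runx2 (log2 0.36 ± 0.079) of the same family and Sox11 (log2 0.80 ± 0.10) rose. The gut mesenchyme factor gene Foxf1 (log2 -0.43 ± 0.070) and Foxp2 (log2 -1.22 ± 0.18) fell. The AP-1, CREB, ATF and CEBP list had 13 rises and 7 falls of 39 (median log2 0.12), and 11 higher and 9 lower with a median of -0.018 under equal sums. The genes Creb3l2 (log2 0.92 ± 0.091), Creb3 (log2 0.80 ± 0.065), Creb3l1 (log2 0.53 ± 0.091), Atf6 (log2 0.81 ± 0.056) and Xbp1 (log2 0.40 ± 0.060), whose products act in secretory cells or in stress of the endoplasmic reticulum, rose. The JUN genes Jun (log2 0.34 ± 0.059) and Junb (log2 0.32 ± 0.047) rose slightly, and the FOS genes Fos (log2 -0.86 ± 0.15) and Fosl1 (log2 -0.99 ± 0.15) fell. Cebpd, a factor of acute phase and fat cell genes, was at 114, 116 and 119 FPKM against 18.8, 23.9 and 32.2 FPKM (log2 -2.21 ± 0.14, limma adjusted p = 0.00102), and Cebpb (log2 -0.83 ± 0.078) fell with it. Nuclear receptors had 2 rises and 10 falls of 22 (median log2 -0.13). Nr4a1, an immediate early receptor, was at 22.5, 28.8 and 33.7 FPKM against 4.87, 7.89 and 7.08 FPKM, and the vitamin D receptor gene Vdr (log2 -1.46 ± 0.077), the thyroid hormone receptor gene Thra (log2 -1.29 ± 0.14) and the liver X receptor gene Nr1h3 (log2 -1.38 ± 0.12) fell. When replicate 1 was dropped, the call of Foxf1, Jun, Junb, Runx2 and Xbp1 was lost. On the 2 pairs other than replicate 2, Runx2 did not pass. In the fit without replicate 1, calls up and down were 2 and 3 for SOX, FOX, RUNX and TBX factors, 6 and 4 for AP-1, CREB, ATF and CEBP factors and 0 and 6 for nuclear receptors. List counts without replicate 2 came to 1 and 10 for nuclear receptors, rises first. The counts of rises and falls without replicate 3 were 1 and 8 for nuclear receptors.

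Most called chemokine, cytokine and complement genes fell. Of 40 tested chemokines and cytokines 5 rose and 19 fell (median log2 -0.57). The neutrophil chemokine gene Cxcl5 was at 712, 747 and 541 FPKM in Vehicle and 12.7, 15.3 and 13.8 FPKM with TGFB1 and Cxcl1 at 256, 189 and 95.6 FPKM against 26.7, 24.1 and 28.4 FPKM (log2 -2.62 ± 0.30, limma adjusted p = 0.00366). Ccl11, the eosinophil chemokine eotaxin, was at 59.3, 39.0 and 74.5 FPKM against 4.91, 6.39 and 11.9 FPKM (log2 -2.78 ± 0.19). For Cxcl1 and Ccl11 no TGFB1 library reached a Vehicle library, as was so for 48.7% of all genes. Cxcl5 was named as a fall without overlap. Cxcl12, a stromal chemokine gene, fell less (log2 -0.78 ± 0.075), and Il6, a cytokine of the acute phase, was at 66.2, 71.8 and 59.2 FPKM against 9.42, 14.3 and 18.2 FPKM. The 5 rises were Tnfsf18, Tnfsf4, Lif, Csf1 and Cxcl16 (log2 0.93 ± 0.10). In the complement list 1 rose and 9 fell of 14 (median log2 -1.01). C3, the central component, was at 45.0, 54.7 and 72.3 FPKM against 4.34, 7.27 and 5.87 FPKM, and the classical pathway protease genes C1ra (log2 -2.25 ± 0.31) and C1s1 (log2 -2.06 ± 0.37) fell with Masp1 (log2 -1.42 ± 0.14) of the lectin pathway. Cd59a, a membrane inhibitor of lysis, rose (log2 0.73 ± 0.074). Genes of MHC class I and antigen processing had 4 rises and 4 falls of 21 (median log2 -0.12), with B2m (log2 0.47 ± 0.051) and Tapbp (log2 0.60 ± 0.10) up and the similar, hence uncertain, copies H2-Q4 (log2 -0.71 ± 0.11) and H2-T22 (log2 -0.59 ± 0.077) down. At 19.0% each, the 4 rises and 4 falls lay near the shares over all genes, 20.1% and 17.1%. For Csf1 and Lif, the call needed replicate 1. Without the replicate block, C1s1, Csf1 and H2-T22 did not pass. Without replicate 1, rises and falls numbered 3 and 13 for chemokines and cytokines and 2 and 2 for MHC class I genes. Rises and falls numbered 3 and 1 for MHC class I genes without the replicate block. Leaving aside members that reached 1 FPKM in 1 group alone, rises and falls were 3 and 14 for chemokines and cytokines and 1 and 7 for complement genes.

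Macrophage transcripts moved in the same direction as these immune lists. The 7 called of 14 tested markers all fell, among them Cd14 (log2 -1.04 ± 0.15), Cd68 (log2 -0.98 ± 0.20) and Lyz2 (log2 -1.13 ± 0.13), a lysozyme gene, with 2 called without replicate 1 and 0 without the replicate block. Lyz2 was at 372, 24.8 and 547 FPKM against 214, 8.28 and 250.1 FPKM. Replicate 2 held little of it in both groups. In that pair Saa3 was at 2869.7 and 6.15 FPKM, Cxcl5 at 747 and 15.3 FPKM and C3 at 54.7 and 7.27 FPKM. Ccl6, a chemokine known from myeloid cells, was like Lyz2 lowest in replicate 2 of both groups, at 42.6, 4.00 and 67.2 FPKM against 4.16, 0.197 and 9.70 FPKM, and C1qc, a macrophage complement gene, was at 33.4, 1.99 and 47.9 FPKM against 19.2, 1.31 and 35.3 FPKM. The share of macrophage RNA in the falls of Saa3, Cxcl5, C3, Ccl6, C1qc, C1qb and the less abundant chemokines was not tested. Calls were lost without replicate 1 for C1qb, C1qc and Cd68. No call was made for C1qb, C1qc, Ccl6, Cd14, Cd68 and Lyz2 without the replicate block.

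All 29 tested mitosis genes fell (median log2 -0.90), and of 29 replication and S phase genes 25 fell and none rose (median log2 -0.51). The cyclin gene Ccnb2 was at 31.1, 35.2 and 33.2 FPKM in Vehicle and 12.9, 17.9 and 14 FPKM with TGFB1 (log2 -1.11 ± 0.075, limma adjusted p = 0.00118), the ubiquitin ligase cofactor gene Ube2c (log2 -1.03 ± 0.063) and the kinetochore gene Nuf2 (log2 -1.05 ± 0.071) fell alike, and Foxm1, the factor that drives mitotic genes, was at 21.2, 26.0 and 16.3 FPKM against 8.81, 13.8 and 9.34 FPKM. Thymidine kinase, Tk1, was at 42.0, 45.6 and 35.5 FPKM against 14.8, 18.8 and 16.8 FPKM, and the helicase subunit genes Mcm5 (log2 -0.81 ± 0.080) and Mcm3 (log2 -0.75 ± 0.089) fell by less. The S phase members not called were Mcm6, E2f1, Ccne1 and Gins1. The inhibitor genes Cdkn2b (log2 2.54 ± 0.069) and Cdkn1a (log2 0.60 ± 0.098) rose. Counted without replicate 1, rises and falls were 0 and 9 for replication and S phase genes. Calls without replicate 2 (rises and falls) were 0 and 14 for replication and S phase genes. In the fit without the replicate block, calls up and down were 0 and 16 for replication and S phase genes.

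Housekeeping machinery moved little, and its direction depended on the scaling. Ribosomal protein genes had 13 rises and 0 falls of 83 (median log2 0.093), but 1 higher and 3 lower and a median of -0.049 under equal sums. Many of them have processed copies and are uncertain. Respiratory chain genes had 12 and 3 of 83 (median log2 0.083), but 3 higher and 7 lower and a median of -0.057 under equal sums, and proteasome subunits 6 and 1 of 46 (median log2 0.14), then 2 higher and 3 lower. Glycolysis genes had 4 rises and 2 falls of 27 (median log2 -0.029), and 3 higher and 6 lower under equal sums, with Pfkp (log2 0.88 ± 0.068) and Hk2 (log2 0.56 ± 0.081) up and Ldhb (log2 -1.26 ± 0.075) down. More genes of enzymes that load tRNA rose than fell: Tars (log2 0.73 ± 0.061), Gars (log2 0.68 ± 0.049) and Nars (log2 0.68 ± 0.055) led 15 rises of 36 (median log2 0.15), and the 3 falls were the mitochondrial enzyme genes Vars2, Cars2 and Sars2. Under equal sums these counts were 10 higher and 3 lower. Detoxifying and redox enzymes had 12 rises and 29 falls of 79 (median log2 -0.13). The glutathione transferase genes Gstt1 (log2 -2.51 ± 0.13), Gstm1 (log2 -1.49 ± 0.057) and Mgst1 (log2 -2.04 ± 0.052) and the superoxide dismutase genes Sod3 (log2 -2.25 ± 0.16) and Sod2 (log2 -1.34 ± 0.084) fell. Cyp1b1, a steroid and xenobiotic oxidase, was at 109, 114 and 103 FPKM against 16.3, 25.8 and 19.3 FPKM, and the retinaldehyde dehydrogenase gene Aldh1a3 (log2 1.83 ± 0.11) rose. Without replicate 1, Cars2, Sars2 and Vars2 missed the threshold. Leaving out replicate 2 ended the call of Cars2, Sars2 and Vars2. The test with replicate 3 left out did not call Sars2 and Vars2. Without the replicate block, Sars2 did not pass. List counts without replicate 1 came to 0 and 0 for ribosomal protein genes, 1 and 0 for respiratory chain subunits, 1 and 0 for proteasome subunits, 2 and 2 for glycolysis genes, 6 and 0 for aminoacyl-tRNA synthetases and 6 and 16 for detoxifying and redox enzymes, rises first. The counts of rises and falls without replicate 2 were 1 and 0 for ribosomal protein genes, 4 and 0 for respiratory chain subunits, 3 and 1 for proteasome subunits, 3 and 4 for glycolysis genes and 9 and 0 for aminoacyl-tRNA synthetases. Without replicate 3, rises and falls numbered 5 and 0 for ribosomal protein genes, 4 and 4 for glycolysis genes and 11 and 1 for aminoacyl-tRNA synthetases. Rises and falls numbered 1 and 0 for ribosomal protein genes and 7 and 2 for respiratory chain subunits without the replicate block.

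**Figure D4:**
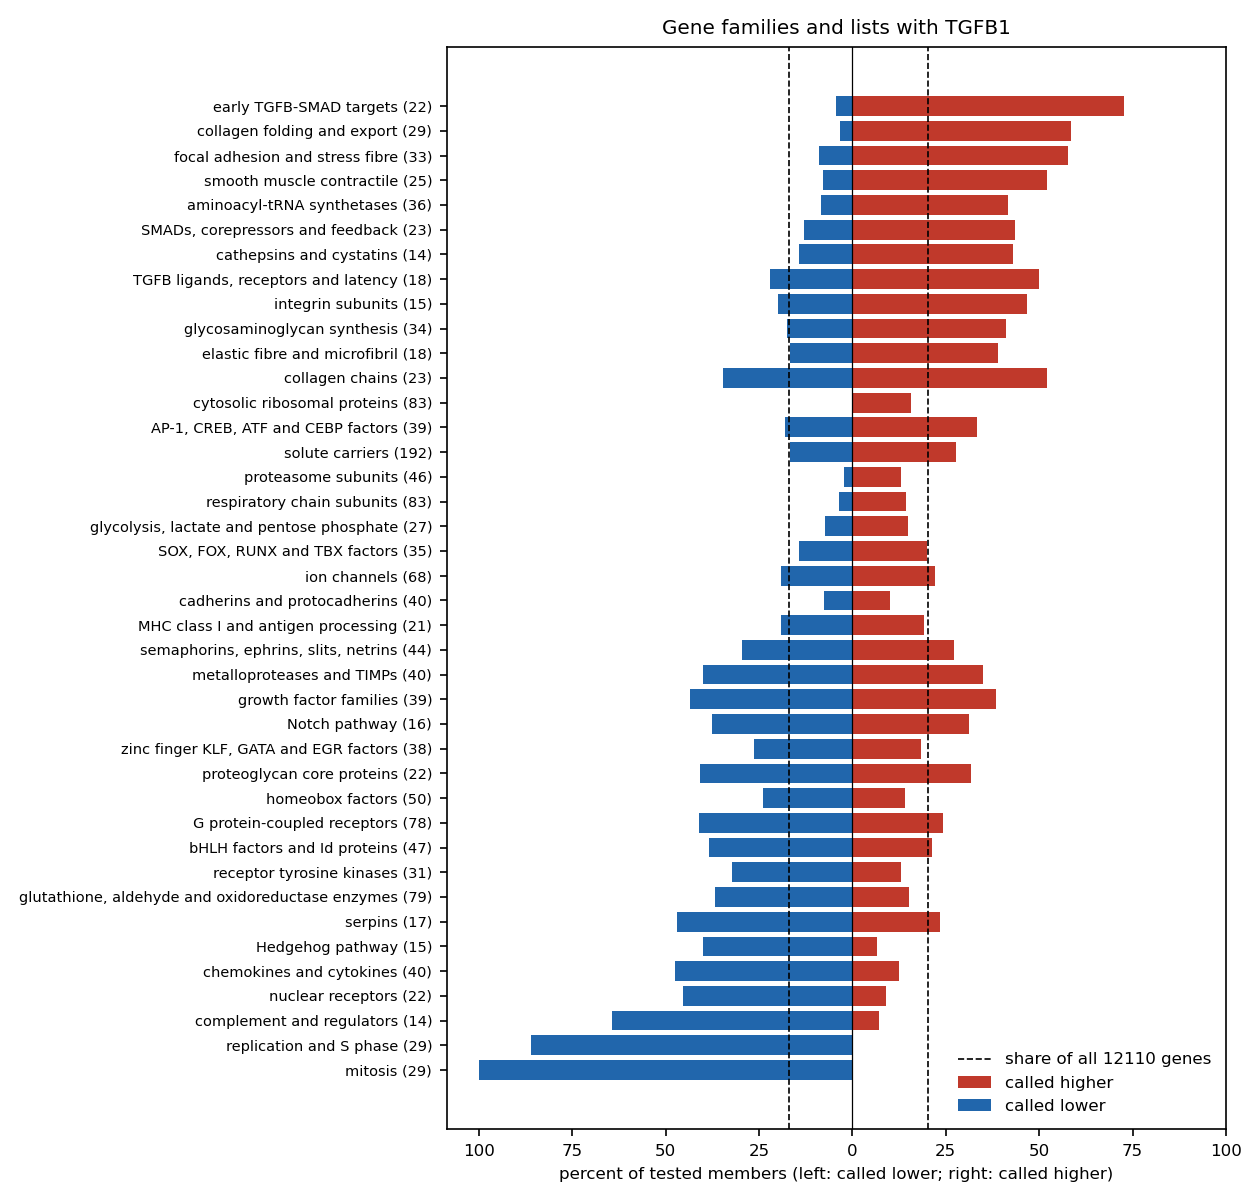
Percent of tested members called higher (right, red) or lower (left, blue) with TGFB1 in 40 gene families and lists, with the number tested in parentheses and dashed lines at the shares over all 12110 genes (20.1% and 17.1%). Early TGFB-SMAD targets and collagen folding genes lie at the top, and complement, replication and mitosis genes at the bottom.

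The DNA before the start sites of the changed genes was read for short motifs. Promoter windows of 250 bases before the start came from RefSeq on GRCm38.p6, and 9512 of the 12110 genes matched by symbol, 7586 of them with exactly 1 window. Motifs were searched on both strands: CAGACA, the SMAD-binding element with its flank, TGANTCA of AP-1, TATAAA, and by name the CArG box of serum response factor and the NF-kB site. CAGACA was in 24.3% of the 148 windows of genes that rose at least 2-fold, in 13.7% of the 263 windows of genes that fell at least 2-fold, in 12.4% of the windows of all tested genes with 1 window and in 17.1% of those of all 22862 genes in the table with 1 window. TGANTCA was in 11.5%, 8.75%, 4.10% and 6.96% of the same sets, and the CArG box in 4.05%, 0.380%, 1.20% and 1.38%, or 6 rising genes and 1 falling gene. The NF-kB site was in 7.43%, 6.84%, 4.46% and 3.70%, and TATAAA in 13.5%, 11.0%, 6.26% and 13.6%. The palindrome GTCTAGAC was in 2 of the rising windows and none of the falling ones, which is 1.35% against 0.175% of all genes with 1 window, and AGCCAGACA, which holds CAGACA, was in neither set, against 0.280% of all. These shares describe letters in short windows and no binding was measured.

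The windows printed here belong to 5 genes that rose (Odaph, Col7a1, Fgf21, Acta1 and Pdgfc) and 2 that fell (Il6 and Cxcl1), shown because their genes are leading members of the groups described and hold the motifs counted. Capitals mark every match to the 5 motifs on either strand, and each window reads 5′ to 3′ on the gene's own strand and ends at the base before the start. They are Odaph at chr5:91987223-91987472 on the plus strand, Col7a1 at chr9:108953336-108953585 on the plus strand, Fgf21 at chr7:45615491-45615740 on the minus strand, Acta1 at chr8:123894776-123895025 on the minus strand, Pdgfc at chr3:81036166-81036415 on the plus strand, Il6 at chr5:30012864-30013113 on the plus strand and Cxcl1 at chr5:90890995-90891244 on the plus strand.
Odaph: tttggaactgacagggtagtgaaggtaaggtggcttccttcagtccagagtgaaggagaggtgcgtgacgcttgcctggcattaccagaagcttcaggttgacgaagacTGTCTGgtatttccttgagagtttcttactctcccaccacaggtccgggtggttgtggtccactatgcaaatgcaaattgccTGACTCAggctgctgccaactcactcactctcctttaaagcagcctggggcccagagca
Col7a1: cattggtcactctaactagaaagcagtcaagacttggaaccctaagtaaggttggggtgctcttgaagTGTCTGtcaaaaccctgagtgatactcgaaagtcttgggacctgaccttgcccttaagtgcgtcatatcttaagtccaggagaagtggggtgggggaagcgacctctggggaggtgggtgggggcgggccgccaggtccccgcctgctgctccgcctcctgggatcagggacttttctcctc
Fgf21: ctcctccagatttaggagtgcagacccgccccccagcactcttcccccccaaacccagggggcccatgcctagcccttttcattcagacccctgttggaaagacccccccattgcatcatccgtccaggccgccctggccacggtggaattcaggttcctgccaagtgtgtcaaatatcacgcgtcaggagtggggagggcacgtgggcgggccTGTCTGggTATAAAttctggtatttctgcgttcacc
Acta1: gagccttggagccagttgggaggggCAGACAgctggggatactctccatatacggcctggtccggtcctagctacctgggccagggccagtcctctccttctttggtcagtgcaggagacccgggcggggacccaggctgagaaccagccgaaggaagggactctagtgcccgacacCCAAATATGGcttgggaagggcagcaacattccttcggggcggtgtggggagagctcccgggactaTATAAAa
Pdgfc: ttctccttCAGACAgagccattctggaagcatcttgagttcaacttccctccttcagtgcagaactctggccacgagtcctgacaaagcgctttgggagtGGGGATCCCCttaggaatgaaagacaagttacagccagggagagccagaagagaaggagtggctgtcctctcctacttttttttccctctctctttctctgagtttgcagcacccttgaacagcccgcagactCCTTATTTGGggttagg
Il6: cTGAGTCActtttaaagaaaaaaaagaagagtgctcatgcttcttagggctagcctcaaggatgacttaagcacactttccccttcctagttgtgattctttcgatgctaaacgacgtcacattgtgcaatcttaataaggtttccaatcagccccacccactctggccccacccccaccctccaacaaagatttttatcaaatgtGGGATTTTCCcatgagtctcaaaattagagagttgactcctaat
Cxcl1: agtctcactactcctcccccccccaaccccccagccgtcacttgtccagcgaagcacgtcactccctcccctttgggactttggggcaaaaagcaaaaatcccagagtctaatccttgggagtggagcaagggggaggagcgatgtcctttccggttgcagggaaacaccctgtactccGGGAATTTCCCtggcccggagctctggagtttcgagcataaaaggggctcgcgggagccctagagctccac

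In Odaph a CAGACA match on the reverse strand (TGTCTG) and an AP-1 match lay in the window, and Col7a1 held CAGACA alone. The Fgf21 window had CAGACA and TATAAA next to each other, and that of Acta1 held CAGACA, a CArG box and TATAAA. Pdgfc held CAGACA, an NF-kB site and a CArG box. Among the genes that fell, Il6 had TGANTCA and an NF-kB site, and the 2 NF-kB matches of Cxcl1 overlap by all but their end bases. No match to CAGACA was present in the windows of Il6 and Cxcl1, which says only that these letters are not there.

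The same treatment of cultures labelled Tgfbr2KO asks how much of the response is left without the type 2 receptor. There limma, fitted to all 12 libraries, called 0 of the 12110 genes, with 1911 at an unadjusted p under 0.05 and a lowest adjusted p of 0.0964. That fit called 5027 genes in receptor-intact cultures, against 4505 in the fit to their 6 libraries. A count of 0 calls does not show that no response is left. By limma's interaction term, fitted to all 12 libraries, 3517 genes (29.0%) responded differently in the 2 genotypes. That count was 793 without replicate 1, 1548 without replicate 2 and 2242 without the replicate block. Of the 747 genes changed at least 2-fold in receptor-intact cultures, 710 passed that test, and 601 had a Tgfbr2KO change under 0.5 in size on the log2 scale. The 747 were chosen by their change in libraries that the test also uses. This choice favours passing, so the count of 710 is no separate support. The median Tgfbr2KO change was 0.022 for the rises and 0.21 for the falls. Saa3 was at 704, 1850.3 and 2717 FPKM in vehicle-treated and 1659, 2614 and 7319 FPKM in TGFB1-treated Tgfbr2KO cultures, and Hbegf at 30.9, 26.0 and 22.4 FPKM in vehicle-treated and 28.8, 28.5 and 9.44 FPKM in TGFB1-treated Tgfbr2KO cultures. Jag1 was at 6.60, 7.73 and 7.40 FPKM in vehicle-treated and 6.87, 9.55 and 3.86 FPKM in TGFB1-treated Tgfbr2KO cultures, so neither it nor Hbegf separated by treatment there. Eln stood at 0.160, 0.647 and 0.941 FPKM in vehicle-treated and 0.693, 4.69 and 6.93 FPKM in TGFB1-treated Tgfbr2KO cultures, with a large spread within each group.

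Responses of some named genes were not shown to differ. Sparc, Postn, Col1a1, Fosl1, Acta2 and C1qc changed with TGFB1 in receptor-intact cultures and did not pass the interaction test (limma adjusted p = 0.535, 0.0816, 0.878, 0.216, 0.124 and 0.511 in that order). Postn, a matricellular protein gene, was at 285, 155 and 355 FPKM against 769, 685 and 799 FPKM in receptor-intact cultures and at 61.8, 127 and 134 FPKM in vehicle-treated and 117, 186 and 290.3 FPKM in TGFB1-treated Tgfbr2KO cultures. Acta2 was at 2022, 1945 and 1657 FPKM against 2684, 2294 and 2265 FPKM, and at 1803, 1742 and 1788 FPKM in vehicle-treated and 2148, 1861 and 1396 FPKM in TGFB1-treated Tgfbr2KO cultures. For Col3a1 the direction differed: it fell in receptor-intact cultures and was at 126, 312 and 358 FPKM in vehicle-treated and 242, 419 and 1304 FPKM in TGFB1-treated Tgfbr2KO cultures, without a call there. When replicate 1 was dropped, the call of Acta2, C1qc, Col1a1, Col3a1 and Sparc was lost. On the 2 pairs other than replicate 2, Col1a1 did not pass. Fitted without the replicate block, C1qc, Col1a1, Col3a1 and Sparc missed the threshold.

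**Figure D5:**
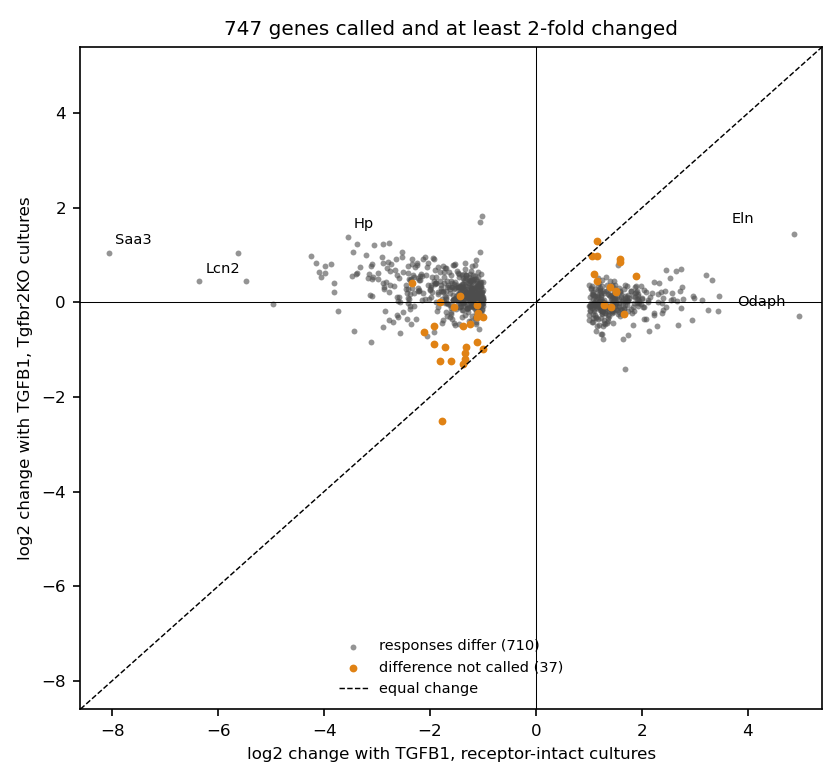
Log2 change with TGFB1 in Tgfbr2KO cultures against that in receptor-intact cultures for the 747 genes called and changed at least 2-fold in the latter, in grey where the changes differ by the interaction test (710) and in orange where they do not (37). Most points lie near 0 on the Tgfbr2KO axis and away from the dashed line of equal change. Genes entered by their change in receptor-intact cultures, so a distance from that line is favoured by the choice.

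A log2 change had a median standard error of 0.078 over all genes, and its 95% interval reached 0.20 to either side. With 3 pairs and 2 residual degrees of freedom a gene, the calls also rest on the spread that limma shares across genes.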

How the data were processed

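RNA-seq of 12 mouse fibroblast libraries was used as 1 table of FPKM, the unit of the values the authors deposited. The submitters' processing notes name kallisto 0.46.1, DESeq2 1.40.1 and the build mm9. How the deposited FPKM were made and scaled between libraries is not given in the sources used here. Groups came from the sample labels, and every value column was mapped to a library. No count test was run, because the files used hold no counts.

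The tested genes reached 1 FPKM in 3 or more of the 6 libraries. Values were put on the log2(FPKM + 1) scale, where changes of low genes come out too small. The test was limma 3.58.1 in R 4.3.3 with a variance trend, the replicate number as a block and Benjamini-Hochberg adjustment over all 12110 genes at 0.05. The interaction and the Tgfbr2KO response were fitted in all 12 libraries. Same-numbered libraries deviated together from their group means (r of 0.427, 0.475 and 0.431, against -0.362 to -0.138 for other numbers), which is why the numbers count as pairs. Relative depth came from values under 0.5 FPKM, compared gene by gene between libraries. In simulated data for this comparison, 67, 67 and 66 of 12110 genes were changed by log2 0.5, 1 and 2. The fit recovered 67.2%, 98.5% and 98.5% of these, with 13 false calls among the unchanged genes. The share of changed genes was far below the 37.2% called in the data, so these rates need not carry over.

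Genes named were the 15 largest rises and falls with a mean of at least 5 FPKM and no overlap, the 10 largest gains and losses in FPKM without overlap, genes under 0.5 FPKM in 1 group and at 2 FPKM or more in the other, at most 4 called genes from each list, and a few fixed genes. Further list members were chosen after their values were seen, and some genes and 1 list of the rule are not reported here. The genes, lists and tests were chosen with earlier results of these data known. Promoter windows came from RefSeq on GRCm38.p6 and no coordinates were taken from the files. Alternatives were no block, pseudocounts of 0.1 and 0.5, no filter, a mean of at least 5 FPKM, upper-quartile, median-of-ratios and equal-sum scaling, no variance trend, each replicate left out and a fit to all 12 libraries. Tables were made in Python 3.11.15 (pandas 2.3.3, numpy 2.4.6) and plots with matplotlib 3.10.9.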

Additional observations from a re-analysis of the deposited data

Results flagged for a closer look

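The response to TGFB1 differed between receptor-intact and Tgfbr2KO cultures for 3517 of the 12110 genes by limma's interaction term, and for 710 of the 747 genes called and changed at least 2-fold in receptor-intact cultures. The 747 were chosen by their change in receptor-intact libraries that the interaction also uses, which favours passing.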

How the results depend on the processing

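The count of 4505 called genes ranged from 1964 to 4105 with 1 replicate left out, that of rises (2431) from 923 to 2184, that of falls (2074) from 1041 to 1921, and the interaction count (3517) from 793 to 3214. Dropping replicate 1 gave the lowest of each. Without the replicate block, which uses the pairing by number, 3771 genes were called (2071 higher and 1700 lower) and the interaction passed for 2242. Equal FPKM sums gave 1385 rises and 3125 falls, or 30.7% rises among the calls against 54.0% as deposited. With a mean of at least 5 FPKM, 1340 genes fell, 269 of them at least 2-fold against 469, and rises were 62.6% of the calls; this filter tests fewer low genes. The cause of the other shifts was not tested. The number of called members moved by over 1.5 times for 22 of 40 lists without replicate 1, 6 without replicate 2 and 1 without replicate 3, while the sign of the list median differed for 2, 0 and 4 lists. It differed for 9 lists under equal sums. Of 237 genes picked by the naming rule 235 were called, and 177 of those were tested under all 14 alternatives, of which 148 were called each time and 29 were not called at least once. No called gene of the 235 reversed where it was tested. No library has a known read depth here, so the precision of low values could not be computed from counts.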

Other observations

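Single markers of cell types changed, in lists that held both rises and falls: 5 rises and 4 falls among fibroblast markers and 5 rises and 2 falls among smooth muscle and pericyte markers. S100a4, a calcium-binding protein gene often used as a fibroblast marker, was at 109.9, 225 and 126 FPKM in Vehicle and 16.5, 27.2 and 18.9 FPKM with TGFB1 (log2 -2.78 ± 0.085). Mcam, an adhesion gene of pericytes, was at 49.3, 52.3 and 40.8 FPKM against 118, 104 and 87.9 FPKM (log2 1.11 ± 0.068), with every TGFB1 library above every Vehicle library. The keratin gene Krt19 (log2 -1.12 ± 0.099) fell, and Uchl1 (log2 1.35 ± 0.17), a ubiquitin hydrolase gene of neurons, rose; it belongs to the enteric glia and neuron list. Etv1, an ETS factor of interstitial cells of Cajal, was at 3.62, 4.34 and 4.25 FPKM against 0.670, 1.11 and 0.873 FPKM (log2 -1.43 ± 0.095).

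Regulators not described above changed too. Bhlhe40, a bHLH repressor gene, was at 20.4, 18.9 and 29.7 FPKM in Vehicle and 80.2, 84.8 and 89.7 FPKM with TGFB1 (log2 1.86 ± 0.11). The stress-responsive factor genes Atf3 (log2 1.00 ± 0.11) and Creb5 (log2 0.93 ± 0.097) rose, and the chromatin organiser gene Satb1 (log2 -1.02 ± 0.12) and Sox12 (log2 -1.17 ± 0.13) fell. Kcne4, a potassium channel subunit gene, was at 7.59, 5.97 and 10.9 FPKM against 0.472, 0.785 and 0.262 FPKM, and Efna5, an ephrin ligand gene, at 9.26, 11.0 and 12.9 FPKM against 2.15, 2.98 and 2.95 FPKM (log2 -1.70 ± 0.075). Kcne4 entered through the Vehicle libraries alone, so its groups had to differ. For Efna5 no TGFB1 library reached a Vehicle library, as was so for 48.7% of all genes. The organic anion transporter gene Slco3a1 was at 64.0, 62.3 and 44.3 FPKM against 20.4, 23.3 and 22.3 FPKM (log2 -1.31 ± 0.13).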
